A study of Ovis aries with 13 samples.

Results

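The genes described here are regulators of apoptosis on a sheep expression array: the survival genes BCL2 and BCL2L1, the pore former BAX and the death receptor FAS, chosen by the gene name or RefSeq accession of the probe. They are 4 of 1013 named genes, with 2 probes each, or 8 of the 15008 probes. BCL2L1 was the only gene named on the array whose name starts with BCL2L, and 13352 probes carried no gene name. The arrays measured RNA of the left ventricle of sheep, from 7 newborn lambs on postnatal day 1 (4 female, 3 male) and 6 fetuses at gestational day 142 (2 female, 4 male), 1 array for each animal. The labels name no treatment or genetic change in either group, and the series title concerns metabolism of the heart at birth. By the labels 9 animals share 4 animal numbers with another animal of their group, and no source used here says what sharing means.

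The arrays lay on 2 slides, with 3 newborn and 4 fetal arrays on slide 1 and 4 newborn and 2 fetal arrays on slide 2. On each array, the upper quartile (75th percentile) of the signal was 8.74 to 13.6 times the median background of the array, and 62.7% to 71.4% of probes were well above background, a mark set for each spot by the scanner software. Of 14 markers of cardiac muscle only myoglobin (MB) was named on the array, and it was well above background on 13 of 13 arrays. On the first principal component of all tested probes newborn 6 (-8.98) lay between the other newborn arrays, which were all above 0 and reached 35, and the fetal arrays (-29.1 to -20.4), and results without it are given where they differ. Tissue pieces hold several cell types, so fewer cells of a type and less RNA per cell cannot be told apart. Precision here is limited by how few arrays there were.

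Apoptosis is run by proteases, the caspases, that are switched on by a mitochondrial and a death receptor route. In the mitochondrial route the pore-forming protein BAX permeabilises the outer mitochondrial membrane and releases cytochrome c, and the survival proteins BCL2 and BCL-X (gene BCL2L1) hold BAX back. In the death receptor route FAS, a receptor of the tumour necrosis factor receptor family, is bound by its ligand and activates an initiator caspase. Heart muscle cells are long-lived and renew little after birth, and survival proteins of the BCL2 family are known to protect them.

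The probe sequences are shown because they decide which values are separate readings. The 2 probes of BCL2, BCL2L1 and BAX are nearly the same stretch shifted by a few bases, so their values are repeat readings of 1 stretch of a transcript and not independent evidence. The probes are 60 bases long, and capitals mark the bases that both probes of the gene share, 58 for BCL2, 56 for BCL2L1 and 59 for BAX.
BCL2 probe 1: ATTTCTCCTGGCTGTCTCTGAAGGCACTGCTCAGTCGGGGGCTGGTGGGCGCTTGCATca
BCL2 probe 2: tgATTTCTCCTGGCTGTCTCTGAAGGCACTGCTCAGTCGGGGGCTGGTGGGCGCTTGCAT
BCL2L1 probe 1: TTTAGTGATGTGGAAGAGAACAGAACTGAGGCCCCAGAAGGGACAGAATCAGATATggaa
BCL2L1 probe 2: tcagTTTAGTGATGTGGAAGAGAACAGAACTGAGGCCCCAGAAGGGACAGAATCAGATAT
BAX probe 1: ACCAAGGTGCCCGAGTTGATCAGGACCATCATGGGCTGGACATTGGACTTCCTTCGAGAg
BAX probe 2: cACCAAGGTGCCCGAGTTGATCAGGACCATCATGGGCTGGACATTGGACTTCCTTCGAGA

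The 2 FAS probes share no stretch of 20 bases or more. Whether they share a shorter stretch, and where they lie on the transcript, is not given here. Their first 30 bases are given.
FAS probe 1, first part: gcatttcgtgattctgcccttcaagggttt
FAS probe 2, first part: gttctgagtagctgcagatattgcttggct

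Probe 1 is the probe of each pair with the higher mean signal over all arrays. The G and C content of the probes was 60% for BCL2, 55% for BAX, 45% for BCL2L1 and FAS probe 1, and 38.3% for FAS probe 2. The files mark the probes as unmapped, so no genome position is given.

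The comparison asked how these genes differed between newborn and fetal left ventricle. BCL2 rose 1.36-fold in newborn ventricle by its brighter probe, close to the threshold, and its second probe did not pass. Neither BAX nor BCL2L1 passed the test. FAS rose by its brighter probe, but the signal cleared background on only 2 of 6 fetal arrays, so its fitted 2.7-fold is not a firm size. With normexp background correction its log2 change was smaller than the fitted 1.43. It was 0.38 by array median, which passed in limma (adjusted p = 0.0206), and 0.21 by spot, which did not pass. Values are log2 signals relative to the 75th percentile of their array, so 0 is the level of that percentile, and a change is the newborn mean minus the fetal mean. The test took probes that 6 or more arrays measured well above background, and a probe passed at an adjusted p under 0.05 in limma, over all 10255 tested probes. Of the 8 probes 7 were tested, the second FAS probe being too dim, and 2 of the 7 passed, both higher in newborn ventricle. Among all tested probes 23.4% passed, 12.4% higher and 11% lower in newborn ventricle, so a count of 2 is near the background and is not a result about these genes. The newborn and fetal values overlapped for each of the 7 tested probes, while among all tested probes they did not overlap for 6.82%, 3.46% higher and 3.35% lower in newborn ventricle. Leaving out newborn 6 made the count 5 of 7, but 3129 of all 10255 tested probes then passed, against 2399 with all arrays. Leaving out any of fetal 1, 3, 4, 5 and newborn 2, 4 made the count 0, with 1726 to 2156 of all tested probes passing.

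BCL2, the founding survival protein of the family, was well above background on 13 of 13 arrays with both probes. Probe 1 lay between -0.18 and 0.87 in newborn ventricles with a median of 0.25, against -0.35 to -0.04 in fetal ventricles with a median of -0.18. Newborn 3 was highest at 0.87 and newborn 7 next at 0.43, while newborn 5 (-0.06) and newborn 6 (-0.18) lay within the fetal range, so the groups overlapped. The mean was 0.25 ± 0.34 in newborn ventricles (SD, n = 7) and -0.19 ± 0.13 in fetal ventricles (SD, n = 6). The log2 change was 0.44 (SE 0.14, 95% interval 0.13 to 0.75, adjusted p = 0.0399).

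The second BCL2 probe, which shares 58 of its 60 bases with the first, lay between -0.29 and 0.90 in newborn ventricles and between -0.24 and -0.06 in fetal ventricles. Its change of 0.32 (SE 0.15, 95% interval -0.01 to 0.65, adjusted p = 0.139) did not pass, and without newborn 6 it passed, at 0.40 (adjusted p = 0.0483). The 2 probes ran together over the 13 arrays, with Pearson's r of 0.94, and of 0.93 for deviations from the group means. Both probes thus ranked newborn 3 highest and newborn 6 lowest among the newborn arrays.

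The BCL2 call lay close to the threshold. Leaving out any single fetal array, or newborn 2, 4 or 7, ended it (adjusted p = 0.0521 to 0.0756), as did sex as a term (adjusted p = 0.0547). The mean of both BCL2 probes changed by 0.38 and did not pass (adjusted p = 0.0727). Nor did probe 1 with the replicate block (adjusted p = 0.0906), in the series matrix (adjusted p = 0.0844), or with normexp by array median (adjusted p = 0.0522) or by spot (adjusted p = 0.535). It was kept without newborn 3, the highest array, at a change of 0.34 (adjusted p = 0.0464), and without newborn 6 at a change of 0.51 (adjusted p = 0.0117). Within slide 1 the change was 0.68 (adjusted p = 0.0808) and within slide 2 it was 0.20 (adjusted p = 0.611), with slide as a block it was 0.47 (adjusted p = 0.0399), and when animals of 1 number were treated as a random block it was 0.46 (adjusted p = 0.0586).

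**Figure D1:**
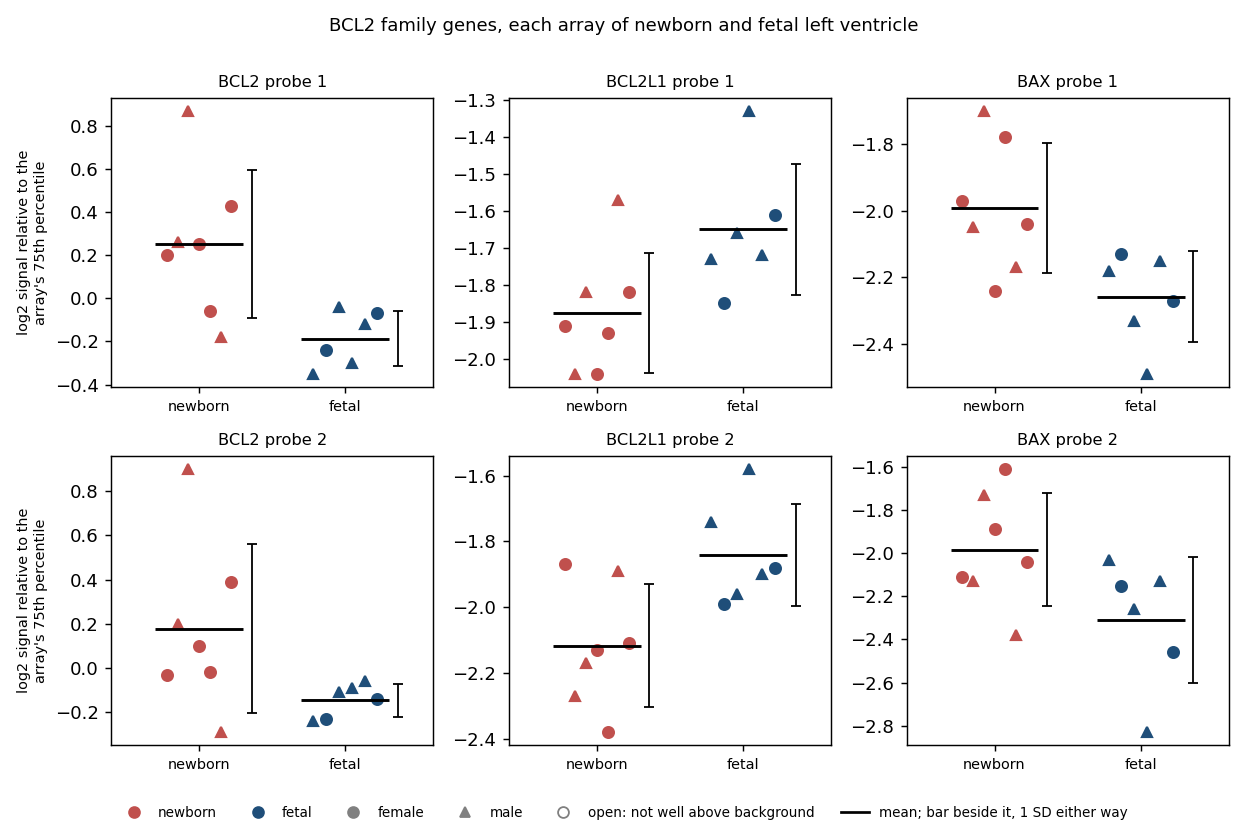
Log2 signal relative to the 75th percentile of the array (vertical axes, not starting at 0) for both probes of BCL2, BCL2L1 and BAX, with 1 point for each of 7 newborn and 6 fetal arrays, circles for females and triangles for males, the group mean as a line and 1 SD either way beside it. Newborn 3 tops both BCL2 panels at 0.87 and 0.90, and in each of the 6 panels the groups overlap.

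BCL2L1, the gene of BCL-X, was lower in newborn ventricle on average but did not pass. Its brighter probe lay between -2.04 and -1.57 in newborn ventricles (median -1.91), against -1.85 to -1.33 in fetal ventricles (median -1.69). Newborn 6 (-1.57) was above 5 of the 6 fetal arrays and fetal 4 (-1.33) was the highest of all. The change was -0.23 (SE 0.11, 95% interval -0.45 to -0.00, adjusted p = 0.131), and -0.28 on the second probe (SE 0.11, adjusted p = 0.0729). Without newborn 6 both BCL2L1 probes passed, at -0.28 (adjusted p = 0.0466) and -0.31 (adjusted p = 0.0369). They also passed, at -0.28 (adjusted p = 0.0348) and -0.33 (adjusted p = 0.0223), when arrays were weighted by quality, a setting chosen after the data were seen.

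BAX, the pore former that BCL2 and BCL-X restrain, was well above background on all arrays and did not pass with either probe. Its brighter probe lay between -2.24 and -1.70 in newborn ventricles (median -2.04), against -2.49 to -2.13 in fetal ventricles (median -2.23). Only newborn 4 (-2.24) and newborn 6 (-2.17) lay within the fetal range. The change was 0.27 (SE 0.11, 95% interval 0.04 to 0.49, adjusted p = 0.0821), and 0.33 on the second probe (SE 0.15, 95% interval 0.01 to 0.64, adjusted p = 0.123). Over the 13 arrays the 2 BAX probes had r = 0.83 and the 2 BCL2L1 probes r = 0.79. Probe 1 of BAX passed with normexp by array median, at 0.18 (adjusted p = 0.0398), and with the array quality weights, at 0.28 (adjusted p = 0.043). The BAX intervals allow a change of BAX as large as that of BCL2.

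FAS, the death receptor, gave dim signals, and the size of its change is uncertain. Its processed signal on probe 1, with background already subtracted, was 3.12 to 45.3 units. The background that was subtracted is not small beside this, with a median of 20.5 to 37.5 units on the 13 arrays. Probe 1 was well above background on 5 of 7 newborn and 2 of 6 fetal arrays, and probe 2 on 4 of 7 newborn and 0 of 6 fetal arrays. On probe 2 the scanner software had put a surrogate value in place of the signal on 4 fetal arrays, the 4 fetal males, and on 0 newborn arrays, and on probe 1 on 1 fetal array, also a male.

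Probe 1 of FAS lay between -5.10 and -2.94 in newborn ventricles (median -3.85), against -6.48 to -3.88 in fetal ventricles (median -5.76). The groups overlapped through fetal 2 (-3.88) and fetal 6 (-4.08), and the other 4 fetal arrays lay below every newborn array. The change was 1.43 (SE 0.46, 95% interval 0.46 to 2.41, adjusted p = 0.0356). Leaving out any of the fetal males 1, 3, 4 and 5 or of newborn 2, 3 and 4 ended the call (adjusted p = 0.0631 to 0.0743), as did a term for sex (adjusted p = 0.062) and a random block for animals of 1 number (adjusted p = 0.0648). The call was kept with slide as a block (adjusted p = 0.0475), the replicate block (adjusted p = 0.0246) and quantile normalization (adjusted p = 0.0359). Within slide 1 the change was 2.03 (adjusted p = 0.093) and within slide 2 it was 0.73 (adjusted p = 0.508).

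Probe 2 of FAS was measured well above background on none of the fetal arrays, so the filter kept it from the test. It lay between -5.65 and -2.95 in newborn ventricles (median -4.10), against -7.01 to -4.51 in fetal ventricles (median -6.35). For a bound, a fetal array counts at its lowest signal well above background wherever the probe itself was dimmer. Against that bound probe 2 was 1.27-fold higher in newborn ventricle. Only 4 of 7 newborn arrays measured probe 2 well above background, so 1.27 is not a firm minimum. With no filter on dim probes neither probe 1 of FAS (adjusted p = 0.0603) nor probe 1 of BCL2 (adjusted p = 0.07) passed. Probe 2 of FAS did pass there, but none of its fetal values was well above background and 4 were surrogates. That pass is therefore not used as support. Over the 13 arrays both FAS probes ran together with r = 0.93, and with r = 0.88 for deviations from the group means.

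The fetal arrays with high FAS were the 2 fetal females. In males probe 1 stood at -3.26, -2.94 and -3.85 in newborn 2, 3 and 6, against -6.48, -5.74, -6.08 and -5.78 in fetal 1, 3, 4 and 5. In females it stood at -4.35, -3.33, -4.51 and -5.10 in newborn 1, 4, 5 and 7, against -3.88 and -4.08 in fetal 2 and 6. Every newborn male thus lay above every fetal male, while 3 of 4 newborn females lay below both fetal females.

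None of the 4 fetal males was well above background on probe 1, so the size of a change in males has only a lower bound. Compared within each sex, a split made after the data were seen, FAS was at least 2.27-fold higher in newborn males by probe 1. The means were -3.35 in newborn and -6.02 in fetal males. Within males limma called this probe at a log2 change of 2.67. That call rests on fetal male values that were not well above background, and it does not test the bound. In females the change was -0.34 (adjusted p = 0.641). In males 13 of the 10255 probes passed and in females 337 did. The test of the difference itself gave a change in males that exceeded the change in females by 3.01 (SE 0.53, unadjusted p = 8.44e-05), and it did not pass over all probes (adjusted p = 0.39). That difference and its SE rest on fetal male values that were not well above background, so its size is not firm. For the difference between sexes 0 of 10255 probes (0%) passed in limma, and 497 (4.85%) had an unadjusted p under 0.05. Without newborn 4 the FAS difference passed, at 3.34 (adjusted p = 0.0346), and over the other arrays left out in turn it was 2.75 to 3.26 and did not pass. With a fetal female left out, the lone other fetal female is assumed to vary like the other groups.

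On probe 2 the mean was -3.82 in newborn males and -6.67 in fetal males, where all 4 fetal values were surrogates. Against the same kind of bound probe 2 was 1.64-fold higher in newborn males. Only 2 of the 3 newborn males measured it well above background. Newborn 6 (-4.84) did not, so 1.64 is not a firm minimum. In females probe 2 averaged -4.61 in newborns and -4.77 in fetuses, the other direction from probe 1, and 2 of 4 newborn females lay below both fetal females. No fetal array measured probe 2 well above background, so no test of its difference between the sexes is given. The fetal females were on different slides, fetal 2 on slide 1 and fetal 6 on slide 2. The label gives fetal 6 the same animal number as fetal 1, a male, in which probe 1 was lowest at -6.48. The 75th percentile was 9.69 and 13.6 times the background on the arrays of the fetal females and 9.91 to 12.6 times on those of the fetal males. The part of signal over background in the difference was not tested, and with normexp background correction with an offset of 50 it was 0.38 (median background, unadjusted p = 0.0895) or 0.73 (background of each spot, unadjusted p = 0.298). Adding an offset of 50 compresses the change of any dim probe. For BCL2, BCL2L1 and BAX the difference between the sexes lay between -0.16 and 0.16, with SEs of 0.23 to 0.34.

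**Figure D2:**
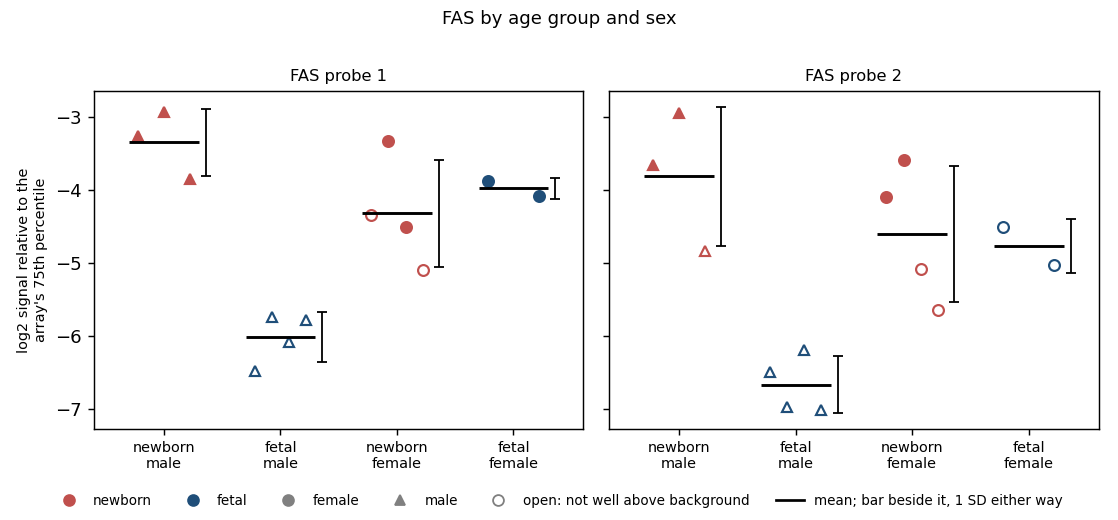
Log2 signal of both FAS probes relative to the 75th percentile of the array (vertical axis, not starting at 0) for 3 newborn and 4 fetal males and 4 newborn and 2 fetal females, with group means as lines and 1 SD either way and open points where not well above background. On probe 1 the newborn males lie at -3.85 to -2.94 and the fetal males at -6.48 to -5.74, while the females of both ages lie between -5.10 and -3.33.

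Other genes of the cell death pathways were read from lists written for this tissue, by the brightest tested probe of each gene. Of 71 listed genes 10 were named on the array and 9 were tested. Of the 9, 3 rose and 1 fell, with a median change of 0.23, against 23.6% called among 647 named genes, 14.2% rises and 9.43% falls, with a median change of 0.09. Among the rises TNF passed the filter through the newborn arrays alone, and IL1B was dim. The direction of IL18, which fell, depended on the probe. The count is therefore not a result about these genes. No adaptor or inhibitor of death receptors, inhibitor of apoptosis protein or caspase substrate of the lists was named on the array.

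Among ligands and receptors TNF, a cytokine whose receptor shares the death domain of FAS, rose and TNFRSF1A, that receptor, did not pass. TNF lay between -4.24 and -2.50 in newborn ventricles, against -6.07 to -4.14 in fetal ventricles, and was well above background on 6 of 7 newborn and 2 of 6 fetal arrays. Its change was 1.76 (SE 0.36, adjusted p = 0.00452), and it passed with each array left out in turn. The 6 newborn arrays alone brought TNF past the filter. Its fetal mean rests mostly on values not well above background, so 1.76 is not a firm size. With normexp the change was 0.50 by array median (adjusted p = 0.003) and 0.36 by spot, which did not pass (adjusted p = 0.919), so the size for this dim gene depends on the background correction. TNFRSF1A changed by -0.07 (SE 0.17, adjusted p = 0.792).

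Of the other BCL2 family genes, neither MCL1, a short-lived survival protein of heart muscle, nor BAD, which binds and blocks BCL2 and BCL-X, passed. MCL1 changed by 0.04 (SE 0.12, adjusted p = 0.835) and BAD by 0.12 (SE 0.11, adjusted p = 0.445). VDAC1, the main channel of the outer mitochondrial membrane, lay between 2.37 and 2.98 in newborn ventricles, against 2.13 to 2.48 in fetal ventricles, and rose by 0.44 (SE 0.11, adjusted p = 0.0114). ENDOG, a mitochondrial nuclease, changed by 0.23 (SE 0.11, adjusted p = 0.141).

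Of the 8 inflammasome genes listed 2 were tested, and the direction of one depended on the probe. IL1B, a cytokine cleaved by the inflammatory caspase, rose by 0.50 (SE 0.14, adjusted p = 0.0214), though only 4 newborn and 2 fetal arrays measured it well above background. Leaving out fetal 5 ended the IL1B call (adjusted p = 0.0528), as did trended and robust eBayes (adjusted p = 0.0692). With normexp the IL1B change was 0.18 by array median (adjusted p = 0.137) and 0.02 by spot, and neither passed. IL18, another such cytokine, fell by 0.54 on its brightest probe (SE 0.18, adjusted p = 0.0444). Leaving out any of fetal 1 to 5 or newborn 3, 4, 5 and 7 ended that call (adjusted p = 0.0532 to 0.0895), and the mean of the 3 IL18 probes changed by 0.95 in the other direction (adjusted p = 0.00229).

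**Figure D3:**
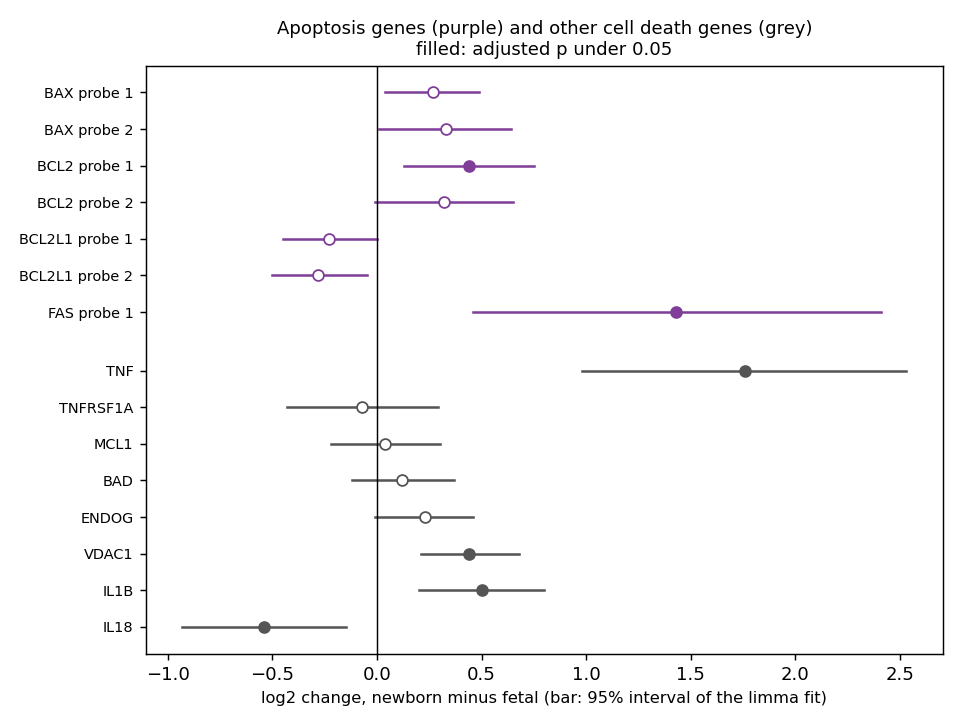
Log2 change, newborn minus fetal, with its 95% interval in limma, for the 7 tested probes of the apoptosis genes (purple) and for 8 other genes of cell death pathways (grey), filled where the adjusted p is under 0.05. BCL2 probe 1 (0.44) and FAS probe 1 (1.43) are filled among the purple points, and TNF, VDAC1, IL1B and IL18 among the grey points.

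Some genes of blood, immune and vessel cells also moved, beside 14.2% rises and 9.43% falls among 647 named genes. Few markers of each list were tested, so the counts describe those markers only. FAS, BCL2, TNF and IL1B are all made by immune cells. All 3 tested markers of macrophages and monocytes, of 7 listed, rose, and their summed level was 1.04 to 2.19 times the 75th percentile in newborn ventricles, against 0.716 to 1.06 times in fetal ventricles. Of these FCGR1A was well above background on 7 newborn but only 2 fetal arrays. The newborn arrays alone thus brought FCGR1A past the filter, so its rise adds no support to that count. Both tested T-cell markers, of 8 listed, fell, with sums of 0.0423 to 0.159 in newborn and 0.207 to 0.593 in fetal ventricles. CD3D was well above background on only 2 newborn arrays, against 5 fetal arrays, and CD3E on 5 newborn and 6 fetal arrays. Of 6 proliferation markers 3 were tested and 2 rose, with sums of 1.51 to 5.42 in newborn and 1.21 to 1.69 in fetal ventricles. Of 7 erythroid markers 2 were tested and both fell, with log2 changes of -1.52 for HBB and -1.73 for AHSP and sums of 25.5 to 68.6 in newborn and 53.8 to 259 in fetal ventricles. AHSP was well above background on only 2 newborn and 5 fetal arrays, so -1.73 is not a firm size. All 3 tested endothelial markers, of 6 listed, fell, with sums of 3.79 to 6.3 in newborn and 5.58 to 7.16 in fetal ventricles. The smooth muscle marker CNN1 rose by 1.83, with levels of 9.84 to 84.2 in newborn and 3.63 to 7.17 in fetal ventricles. Of 3 tested fibroblast markers 0 passed in limma, and 1 had an unadjusted p under 0.05. No marker of neutrophils or B cells was named on the array. The part of these cells in the changes of FAS and BCL2 was not tested.

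Over the 13 arrays the named genes most like BCL2 in pattern, out of 643 compared, were the zinc transporter SLC39A7 (Pearson's r = 0.94), the adhesion molecule MADCAM1 (0.91) and the actin-severing protein CFL1 (0.89). For deviations from the group means the same pairs had r = 0.90, 0.83 and 0.84, so the likeness was not only the difference between the groups. Of these MADCAM1 passed (log2 change 1.03, adjusted p = 0.017), and SLC39A7 (0.27, adjusted p = 0.0833) and CFL1 (0.49, adjusted p = 0.0795) did not. Among the genes most like FAS were the protease inhibitor TIMP1 (r = 0.78, and 0.60 for deviations) and MDD2 (r = 0.78, and 0.63 for deviations). TIMP1 passed (0.82, adjusted p = 0.0131), and MDD2 (0.20, adjusted p = 0.13) did not. These correlations are descriptions over arrays that share slides and scaling.

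**Figure D4:**
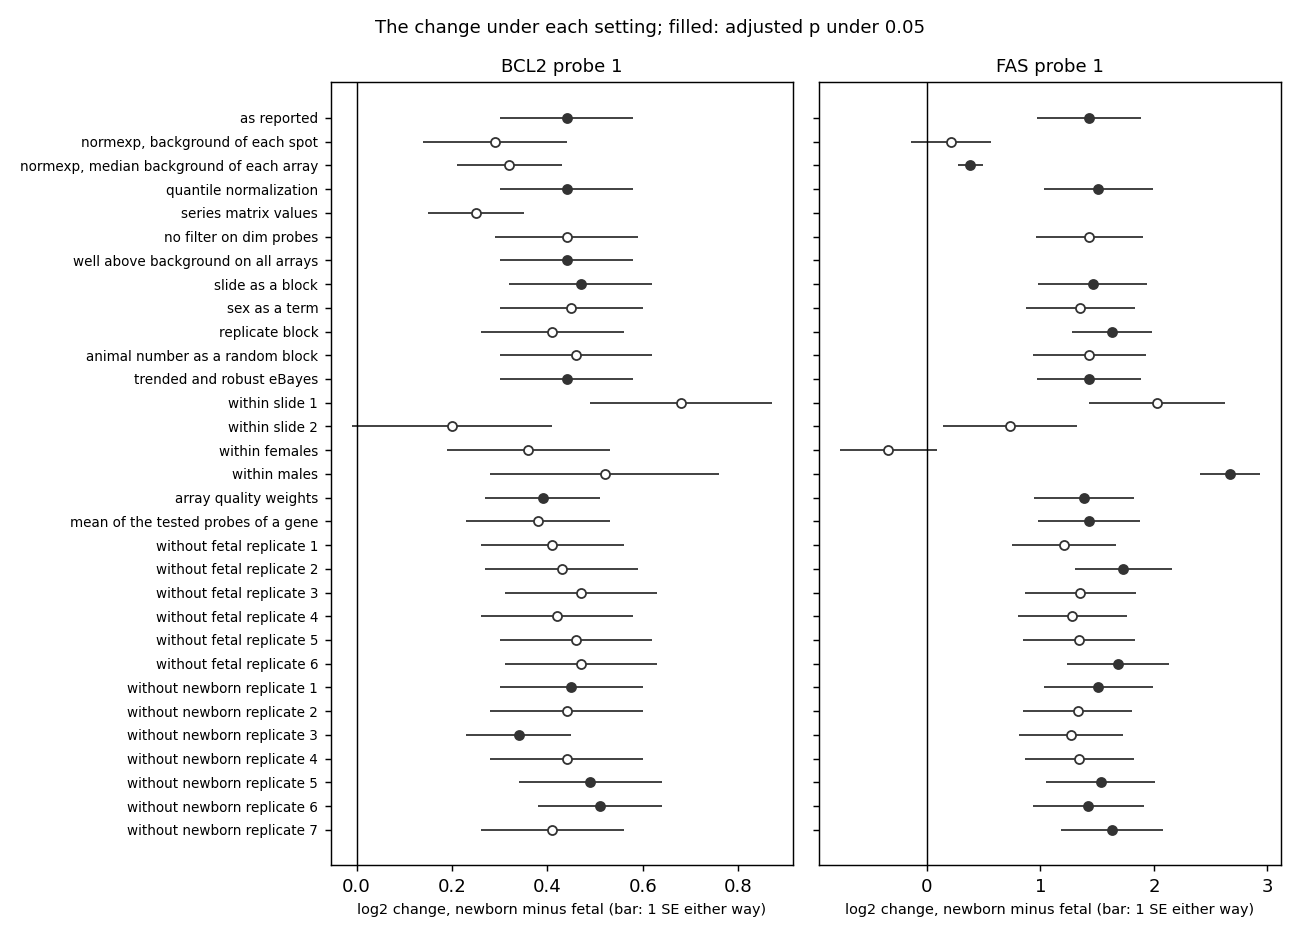
Log2 change, newborn minus fetal, of BCL2 probe 1 (left) and FAS probe 1 (right) under each processing setting, with 1 SE either way, filled where the adjusted p is under 0.05. BCL2 stays above 0, between 0.20 and 0.68, and FAS lies between -0.34 within females and 2.67 within males, where no fetal value was well above background.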

How the data were processed

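RNA was isolated with Trizol, per the labels' protocols, which name Cy3 as the dye (another label field says Cy5). In the deposited scanner files each spot has an intensity in the green channel and marks for signal above background, both from Agilent's Feature Extraction software per the file headers, with background subtracted and detrended within the array and no normalization between arrays. The authors' deposited series matrix holds log2 signals of 7041 probes with no stated normalization. Each column correlated best with its own array (r 0.986 to 0.992), column medians were 8.69 to 8.7, and the matrix served only as an alternative.

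Control and outlier spots were dropped, the other processed signals were divided by their 75th percentile on the array and put on the log2 scale, and repeat spots were averaged. Of 15008 probes 1634 had 1 gene name after update through the RefSeq gene table, 14 had several, 8 conflicted and 13352 had none. The newborn and fetal groups were set against each other in limma 3.58.1 (lmFit, eBayes; R 4.3.3) with age as the term. Two-sided p-values were adjusted by Benjamini and Hochberg's method over the 10255 probes that 6 or more arrays measured well above background, and 0.05 was the threshold. A second fit added sex and its product with age. A gene had its brightest tested probe. Files were read with the data.table package, version 1.17.8, and figures drawn in Python 3.11.15 with matplotlib 3.10.9. The fits were tested on simulated data.

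Members, lists and the naming rule were chosen with earlier results of these data known. Some genes of the rule and the lists are not reported here. The rule names members, the list genes that passed or had the smallest p, and genes among the 3 most correlated with each member called. TNFRSF1A, MCL1 and ENDOG lie outside it and were added after their values were seen, to complete their lists. Labels do not say that animals were independent, so p-values measure the spread between these samples. Both slides held both groups, so slide was tried as a block and values were given within slides. Alternatives were quantile normalization, normexp with an offset of 50, other filters, the series matrix, slide, sex, replicate or animal number in the model, trended eBayes, mean of probes, and each array left out.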

Additional observations from a re-analysis of the deposited data

How the results depend on the processing

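Of 2399 probes that passed in all, and of the 2 of 7 probes of the apoptosis genes and 4 of 9 other cell death genes, these counts moved by over 1.5 times. With normexp background correction by spot they were 45, 0 and 0, within slide 1 328, 0 and 0, within slide 2 23, 0 and 0, within females 337, 0 and 0, and within males 13, 1 and 0. With the replicate block 1342 probes and 1 apoptosis probe passed. Replicate numbers did not pair the samples (correlations of deviations -0.07 to 0.05 over 6 pairs). The apoptosis probes that passed were 0 with sex as a term, with animal number as a random block or in the series matrix, which holds 3 of them. They were 1 of 6 with probes well above background on all arrays, where FAS was not tested and BCL2 probe 1 passed (adjusted p = 0.0325). With the mean of probes 1 of 4 genes passed. With array quality weights 5 apoptosis probes passed, where 3399 of all 10255 tested probes passed. The other cell death genes that passed were 2 of 9 with normexp by array median, 2 of 7 on probes well above background everywhere, and 1 of 6 in the series matrix. With 1 array left out the 3 counts were 1726 to 3129, 0 to 5 and 2 to 5. For the difference between sexes 0 apoptosis probes passed, and 0 to 1 with 1 array left out.

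Signs reversed for FAS within females (-0.34), for MCL1 within females (-0.10), without fetal 5 (-0.04) and without newborn 2 (-0.02), for TNFRSF1A with normexp by array median (0.04) and without fetal 6 (0.02), and for IL18 with the mean of probes (0.95). With 1 array left out MCL1 ranged from -0.04 to 0.08 and TNFRSF1A from -0.16 to 0.02. The cause was not tested. FAS changed by 0.21 with normexp by spot, which did not pass, and by 0.38 by array median, which passed (adjusted p = 0.0206). In both an offset of 50 compresses the change of any dim probe. The within-sex comparisons and array weights were chosen after the data were seen. FAS lies near background, which limits what can be said of the size of its change.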
